A study of Mus musculus with 9 samples.

Results

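Prostaglandins, thromboxane and leukotrienes are signalling lipids made from arachidonic acid, and 10 mouse genes of this route were followed here: the cyclooxygenases Ptgs1 and Ptgs2, the synthases Ptges, Hpgds and Tbxas1, the prostaglandin E2 receptor Ptger4, and Alox5, Alox5ap, Lta4h and Ltc4s of the leukotriene arm. They were picked by name for their place in the pathway, with earlier results of these data known. Each of the 10 had its own entry among the 28379 genes of the deposited table, and each passed the filter on low counts that left 17002 genes for testing. A further 52 genes of the same pathway, listed by role, were read for context.

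RNA was sequenced from primary bone marrow derived macrophages (BMDMs) of 10-week-old C57BL/6J mice, in 3 groups of 3 libraries. Every group was kept in macrophage colony-stimulating factor (M-CSF, 20 ng/ml) for 48 h. Cells labelled PBS had neither RANKL nor vitamins, and those labelled RANKL had 100 ng/ml of this osteoclast-inducing cytokine. Those labelled RANKL + Vitamin D and K, called vitamin-treated below, had the cytokine plus 1000 nM of vitamin D and 20 μM of vitamin K. The study's methods name no solvent for the vitamins and do not say whether the other groups received it. The vitamins were given together, so their separate effects cannot be told apart, and the study's methods state another vitamin K dose than the labels do. The comparison of the vitamin-treated group with the RANKL group addressed what the vitamins change during osteoclast induction. The methods speak of pooled RNA, and nothing says that the replicates came from separate mice or cultures, so the p-values measure the spread between these libraries, which may be technical.

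Both lipid families start when a phospholipase frees arachidonic acid from membranes. The cyclooxygenases Ptgs1, usually constitutive, and Ptgs2, usually inducible, turn it into prostaglandin H2, from which separate synthases make prostaglandin E2, prostaglandin D2 or thromboxane A2. In the other branch 5-lipoxygenase (Alox5), presented with its substrate by the membrane protein Alox5ap, makes leukotriene A4, which Lta4h hydrolyses to leukotriene B4 and Ltc4s conjugates to leukotriene C4. Macrophages are well known producers of both families, and prostaglandin E2 is a known regulator of osteoclast formation.

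Library totals lay between 65915112 and 68229647 counts, so 3 counts corresponded to at most 4.55e-06% of a library. The induction markers behaved as the labels say: Acp5, an acid phosphatase of osteoclasts, had a mean FPKM (fragments per kilobase of transcript, scaled to library size, as deposited) of 4.20 in PBS, 218 in RANKL and 3.48 with the vitamins, and Cyp24a1, the vitamin D 24-hydroxylase, had 0 counts in each RANKL library and 39, 113 and 64 with the vitamins. Ctsk, another osteoclast marker, did not return to its PBS level, with means of 9.51, 297 and 38.7 in the order PBS, RANKL, vitamins. The summed FPKM of 8 osteoclast markers, Acp5 and Ctsk among them, ran from 13.7 to 21.1 in PBS and from 472 to 996 in RANKL. With the vitamins it ran from 51.7 to 85.6, above PBS. The summed FPKM of 8 macrophage markers ran from 26400 to 30600 in PBS, from 16700 to 24300 in RANKL and from 4530 to 11600 with the vitamins, and all 8 reached 1 FPKM. Lyz2 made up most of it, with group means of 26700, 19800 and 6070. The other macrophage markers also had lower means with the vitamins than in RANKL, Csf1r for example at 964, 544 and 183. The exception was Cd68, at 504, 552 and 718. Replicate 2 of the vitamin-treated group stood apart from the other two, with the 11600 of that range, and several genes below share this spread. Of the other cell types, summed neutrophil markers were 9.27 to 95.5 FPKM in PBS, 9.38 to 110 in RANKL and 0.493 to 1.5 with the vitamins. The platelet list, whose cells are rich in Ptgs1 and Tbxas1, summed to 8.22 to 35.4 in PBS, 6.31 to 19.9 in RANKL and 22.7 to 29.1 with the vitamins. Of its 7 genes 3 reached 1 FPKM in any library, and group means in the same order were 14.3, 6.32 and 14.7 for Pf4 and 1.02, 3.17 and 11.5 for Itgb3, while Gp9 was at 0 in each vitamin-treated library. The dendritic cell list summed to 0.760 to 0.951 in PBS, 2.18 to 2.81 in RANKL and 6.71 to 8.08 with the vitamins. Most of it was Itgax, with group means of 0.614, 1.73 and 7.34. Each other gene of that list had a lower mean with the vitamins than in RANKL. The endothelial list summed to 0.438 to 0.682, 0.670 to 1.02 and 1.41 to 3.18, most of it Kdr. The 1 T cell gene with an entry had 0.338 to 0.639 in PBS, 2.26 to 3.76 in RANKL and 0.0788 to 0.210 with the vitamins, and the eosinophil list summed to 0.229 to 0.316, 0.780 to 1.45 and 0.148 to 0.377. The fibroblast list summed to 0.204 to 0.612, 0.408 to 0.480 and 0.0303 to 0.0459, and the B cell list to at most 0.134. The mast cell and basophil list, whose cells are rich in Hpgds and Ltc4s, stayed at or below 0.354 FPKM with none of its 3 genes in the table at 1 FPKM. The part of these cell types in the results below was not tested.

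Of the 10 genes, 3 differed between the vitamin-treated and RANKL groups by edgeR, whose quasi-likelihood p-values were adjusted over all 17002 genes by Benjamini-Hochberg: Ptgs2 was higher, and Ptger4 and Tbxas1 were lower. That is a share close to the background, since 33.7% of all genes passed in this comparison, 16.4% higher and 17.2% lower. Against PBS the vitamin-treated group differed in 6 of the 10, Ptgs2 upwards and Ptger4, Tbxas1, Alox5ap, Ltc4s and Hpgds downwards, where 40.8% of all genes passed, 19.8% higher and 21.0% lower. RANKL against PBS passed for 0 of the 10 by edgeR, in a comparison in which 3.61% of all genes did, 2.35% higher and 1.26% lower. For 3 of the 10, namely Hpgds, Alox5 and Alox5ap, the unadjusted p was under 0.05. DESeq2 called 1 of the 10 in that comparison (Hpgds), limma on log2 FPKM called 0, and voom with sample quality weights called 3. Without replicate 2 of the vitamin-treated group the 3 counts of the 10 were 5 against RANKL, with Ptgs1 and Alox5 added, 5 against PBS, and 3 for RANKL against PBS. The median log2 fold change of the 10 was -0.27 for RANKL against PBS, -0.38 for the vitamins against RANKL and -0.68 for the vitamins against PBS, beside -0.04 over all genes tested in each comparison.

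**Figure D1:**
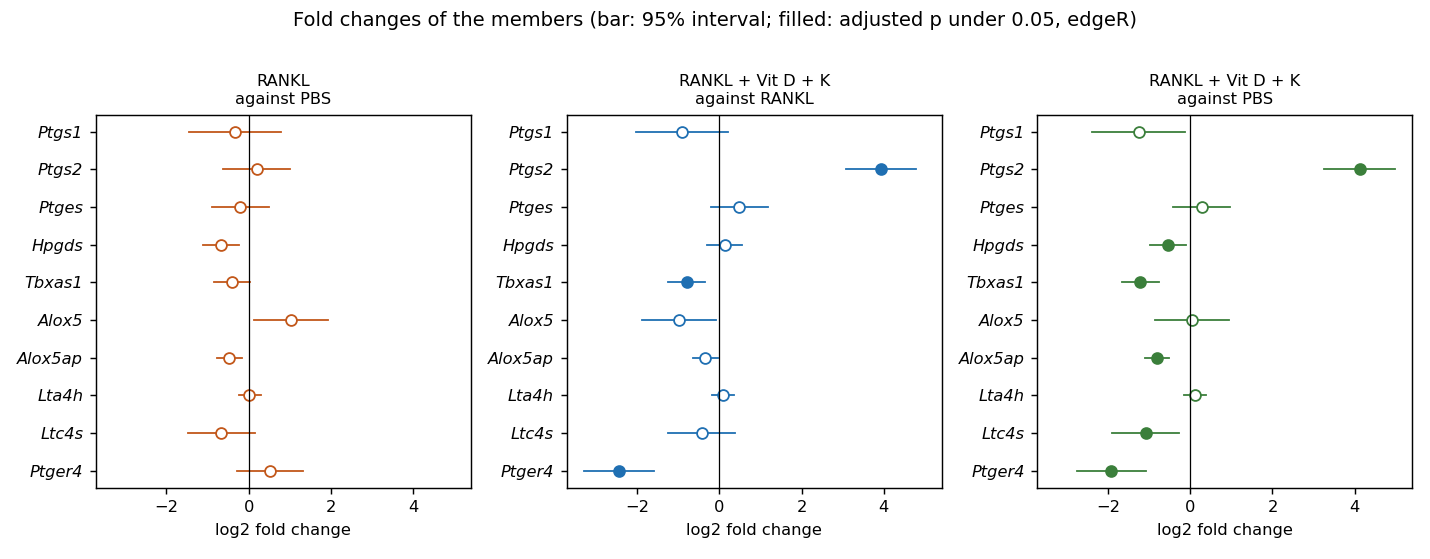
Log2 fold changes of the 10 genes (points) with 95% intervals (bars) from edgeR in the 3 comparisons, filled where the adjusted p was under 0.05. Ptgs2 stands alone on the right with the vitamins, at 3.93 against RANKL and 4.13 against PBS, and no gene is filled for RANKL against PBS.

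The sequences just upstream of the 3 genes that differed between the vitamin-treated and RANKL groups are shown because their transcripts moved in opposite directions. They are the 250 bases before the RefSeq transcription start on GRCm38.p6, written 5′ to 3′ on the gene's own strand, with matches to the searched motifs in capitals. Ptgs2 lies at chr1:150099781-150100030 on the + strand, Ptger4 at chr15:5244188-5244437 on the - strand and Tbxas1 at chr6:38918736-38918985 on the + strand.
Ptgs2: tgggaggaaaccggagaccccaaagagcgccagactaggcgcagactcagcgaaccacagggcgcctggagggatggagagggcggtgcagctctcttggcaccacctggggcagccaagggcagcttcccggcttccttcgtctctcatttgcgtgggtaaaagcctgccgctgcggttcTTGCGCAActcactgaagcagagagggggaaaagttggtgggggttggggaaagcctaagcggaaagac
Ptger4: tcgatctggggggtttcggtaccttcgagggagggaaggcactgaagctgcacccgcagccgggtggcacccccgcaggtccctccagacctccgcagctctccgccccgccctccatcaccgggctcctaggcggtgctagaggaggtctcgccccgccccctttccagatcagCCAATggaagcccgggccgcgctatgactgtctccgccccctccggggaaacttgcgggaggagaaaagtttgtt
Tbxas1: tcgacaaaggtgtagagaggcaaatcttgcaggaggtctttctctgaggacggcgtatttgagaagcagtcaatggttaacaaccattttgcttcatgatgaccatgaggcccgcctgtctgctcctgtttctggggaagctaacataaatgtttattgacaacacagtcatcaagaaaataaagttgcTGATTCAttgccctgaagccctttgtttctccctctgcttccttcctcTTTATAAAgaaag
Both strands were searched for the TATA box TATAAA, the CCAAT box, the E-box CACGTG, the cyclic AMP response element TGACGTCA, the AP-1 core TGANTCA, the C/EBP core TTGCNNAA, the DR3 vitamin D response element and the NF-kB site. The Ptgs2 window held TTGCNNAA from 69 to 62 bases before the start, and 9.56% of the 32851 RefSeq windows of the same length held it. The Ptger4 window held CCAAT from 75 to 71 bases before the start, as 33.8% of windows did. Tbxas1 had TGANTCA from 61 to 55 bases before the start, a motif in 6.75% of windows. It also had 2 overlapping matches to TATAAA on opposite strands, which together span 13 to 6 bases before the start, and 12.4% of windows held this motif. None of the 3 windows held the E-box (6.02% of windows), the cyclic AMP response element (1.55%), the vitamin D response element (0.0396%) or the NF-kB site (7.25%) in the forms searched. The searched form of the vitamin D response element is so rare that its absence here carries no information. The Tbxas1 window belongs to a RefSeq start inside the gene as deposited, which begins further upstream at base 38875404. A window was at hand for 9 of the 10 genes, and that of Alox5ap was not analysed here.

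Ptgs2, the inducible cyclooxygenase (ENSMUSG00000032487, chr1:150100031-150108227, + strand), was nearly silent until the vitamins were added. Its counts were 24, 24 and 26 in the PBS libraries, 16, 39 and 40 in the RANKL libraries, and 323, 484 and 496 in the vitamin-treated libraries. The vitamin-treated libraries lay far above the other 6, which overlapped one another. In FPKM these were 0.0692, 0.0691 and 0.0749 in PBS, 0.0456, 0.111 and 0.110 in RANKL, and 0.943, 1.37 and 1.45 with the vitamins, so the induced level was still low. The log2 fold change was 3.93 (SE 0.38, edgeR adjusted p = 0.000394) against RANKL, a 15.2-fold rise, and 4.13 (SE 0.38, adjusted p = 0.000236) against PBS. For RANKL against PBS it was 0.20, with a 95% interval from -0.61 to 1.01. Both rises passed in 18 of 18 alternative fits, the smallest value against RANKL being 1.04 on the log2(FPKM + 1) scale, where low levels count less.

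Ptgs1, the cyclooxygenase of resting cells (ENSMUSG00000047250, chr2:36230426-36252272, + strand), passed in none of the 3 comparisons by edgeR on the 9 libraries. FPKM was 4.59, 7.56 and 5.15 in PBS, 4.12, 5.47 and 5.41 in RANKL, and 0.659, 4.59 and 2.20 with the vitamins. Replicate 2 of the vitamin-treated group was inside the RANKL range and the other two were below it, a 6.97-fold spread within the group. The log2 fold change was -0.92 (SE 0.50, adjusted p = 0.184) against RANKL and -1.25 (SE 0.50, adjusted p = 0.0734) against PBS. Without that replicate both passed, at -1.60 (adjusted p = 0.0156) and -1.93 (adjusted p = 0.00642). Of the 18 alternatives, 2 called the difference from RANKL, the other being voom (adjusted p = 0.00712), and 5 called that from PBS, with DESeq2 (adjusted p = 0.0310), limma on log2(FPKM + 1) (0.0487), voom (0.00153) and the replicate block (0.0247) besides. The value for RANKL against PBS was -0.33, with an interval from -1.44 to 0.78. Ptgs1 shares 148 of its 3884 exon bases with Gm43621 on the opposite strand, which had at most 29 counts.

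Within each library the balance of the 2 cyclooxygenase transcripts was different with the vitamins. Ptgs2 made up 1.48%, 0.905% and 1.43% of their summed FPKM in PBS and 1.1%, 2.0% and 2.0% in RANKL. With the vitamins its share was 58.9%, 23.0% and 39.8%, a mean of 40.5% ± 18.0 (SD, n = 3) beside 1.70% ± 0.521 in RANKL. The difference of 38.8 percentage points exceeded the spread, no library overlapped, and the two-sided exact permutation test gave 0.1, the smallest p that 3 libraries against 3 allow. Replicate 2 had the lowest share of its group, with the highest Ptgs1 of the 3 and a Ptgs2 FPKM of 1.37 between the other two. Because bulk RNA was measured, fewer cells of a type and less RNA per cell cannot be told apart for any gene.

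Hpgds, the haematopoietic prostaglandin D synthase (ENSMUSG00000029919, chr6:65117293-65144908, - strand), was the most abundant of the 3 synthases in every group. FPKM was 31.5, 36.5 and 27.3 in PBS, 22.7, 18.3 and 23.7 in RANKL, and 17.7, 19.9 and 26.3 with the vitamins. Each of the 6 RANKL-exposed libraries was below each PBS library, and the groups with and without vitamins overlapped. RANKL against PBS gave a log2 fold change of -0.67 (SE 0.19, adjusted p = 0.0943), which passed in 4 of 18 alternative fits, DESeq2 among them (adjusted p = 0.0389). The vitamins against RANKL gave 0.13, with an interval from -0.30 to 0.56. Against PBS the vitamin-treated group was lower by a log2 fold change of -0.55 (SE 0.19, adjusted p = 0.0467), a call that held in 7 of 18 alternatives. Leaving out any 1 library ended it, with the exception of RANKL replicate 2 and vitamin-treated replicate 3, and the adjusted p then reached up to 0.17.

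Tbxas1, the thromboxane A synthase (ENSMUSG00000029925, chr6:38875404-39084585, + strand), fell with the vitamins. FPKM was 12.8, 11.1 and 11.4 in PBS, 11.6, 7.08 and 10.1 in RANKL, and 4.10, 5.87 and 5.14 with the vitamins. The vitamin-treated libraries were below the other 6, the nearest being replicate 2 of RANKL. Its log2 fold change was -0.80 (SE 0.20, adjusted p = 0.0139) against RANKL, 1.75-fold lower, and -1.22 (SE 0.20, adjusted p = 0.00176) against PBS, 2.32-fold lower. Against PBS the fall passed in 18 of 18 alternatives, and against RANKL in 16, with an adjusted p of 0.0589 without RANKL replicate 1 and 0.0524 without RANKL replicate 3. RANKL against PBS gave -0.41 (adjusted p = 0.303). The gene body overlaps Hipk2 on the opposite strand without sharing exon bases. Hipk2 had up to 15375 counts in PBS, 10606 in RANKL and 5593 with the vitamins. Tbxas1 shares 144 of its 9094 exon bases with Gm42962, also on the opposite strand, which had at most 14 counts. Whether the counting used strand is not given in the sources used here, and the part of these overlaps in the Tbxas1 counts was not tested.

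Ptges, the inducible microsomal prostaglandin E synthase (ENSMUSG00000050737, chr2:30889471-30903297, - strand), passed in none of the 3 comparisons. FPKM was 1.80, 1.04 and 2.02 in PBS, 1.51, 1.31 and 1.77 in RANKL, and 1.84, 1.56 and 2.39 with the vitamins. The 3 groups overlapped, and the log2 fold change for the vitamins against RANKL was 0.48 (SE 0.31, adjusted p = 0.254), with an interval from -0.21 to 1.18. Against PBS it was 0.28, and RANKL against PBS gave -0.21.

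Tbxas1 was a smaller part of the 3 synthase transcripts in each vitamin-treated library than in any RANKL library. It made up 29.1% ± 2.97 (SD, n = 3) of their summed FPKM in RANKL and 18.0% ± 3.20 with the vitamins, a difference of -11.1 percentage points. Hpgds made up 66.2% ± 2.58 and 75.2% ± 2.48, and Ptges 4.70% ± 0.424 and 6.84% ± 1.06. In each of these 3 shares the vitamin-treated and RANKL libraries did not overlap, and the exact permutation test gave its smallest value, 0.1. The PBS means were 26.2% for Tbxas1, 70.1% for Hpgds and 3.67% for Ptges. Shares within a sum are tied to each other, so a lower Tbxas1 share raises the others.

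**Figure D2:**
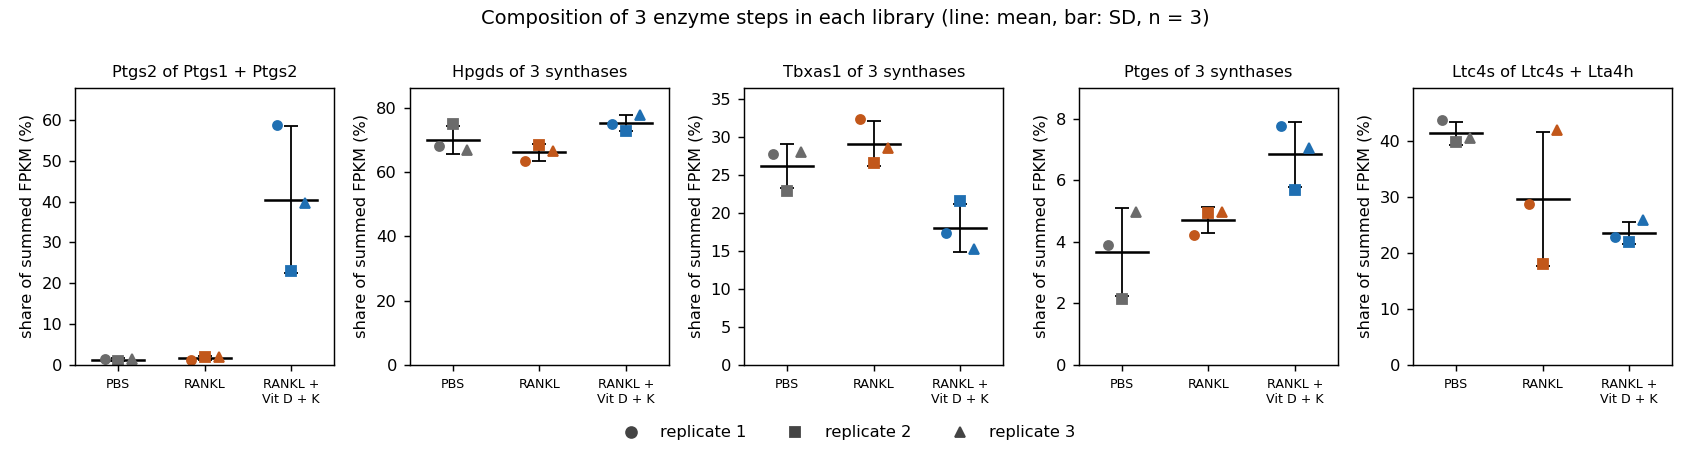
Share of each transcript in the summed FPKM of its enzyme step (percent, y axis) in each library by group (points), with group mean (line) and SD (bar), n = 3. Ptgs2 goes from 1.70% of the cyclooxygenase sum in RANKL to 40.5% with the vitamins, and the Tbxas1 share is 29.1% in RANKL and 18.0% with the vitamins.

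Ptger4 encodes EP4, a Gs-coupled receptor through which prostaglandin E2 raises cyclic AMP (ENSMUSG00000039942, chr15:5206661-5244172, - strand). Its counts were 1159, 513 and 646 in PBS, 1478, 1105 and 1128 in RANKL, and 168, 327 and 137 with the vitamins. FPKM was 2.36, 1.02 and 1.3, then 2.97, 2.22 and 2.18, then 0.337, 0.636 and 0.273 in the same order. The vitamin-treated libraries were below the other 6, whereas PBS and RANKL overlapped through PBS replicate 1. Ptger4 changed by -2.44 on the log2 scale against RANKL (SE 0.38, adjusted p = 0.00233), 5.44-fold lower, and by -1.92 against PBS (SE 0.37, adjusted p = 0.00397), 3.77-fold lower. Both passed in 18 of 18 alternatives, from -2.97 to -1.29 against RANKL, the latter on the log2(FPKM + 1) scale. RANKL against PBS gave 0.53, with an interval from -0.28 to 1.33. Ptger4 shares 82 exon bases with Ttc33 and 1015 of its 6648 with the predicted gene Gm15937, both on the opposite strand. Ttc33 had up to 2118 counts in PBS, 1910 in RANKL and 2246 with the vitamins, above every count of Ptger4, and Gm15937 up to 0, 4 and 26. How many of the Ptger4 counts came from the shared bases was not tested.

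Alox5, the 5-lipoxygenase (ENSMUSG00000025701, chr6:116410077-116461178, - strand), was higher in each RANKL library than in any other. FPKM was 4.16, 5.91 and 3.77 in PBS, 9.67, 10.8 and 10.3 in RANKL, and 1.83, 8.58 and 4.18 with the vitamins. RANKL overlapped neither other group, and the vitamin-treated group spread 4.68-fold. For RANKL against PBS it came to a log2 fold change of 1.03 (SE 0.40, adjusted p = 0.209) in the fit that shares its spread over the 3 groups, and 1.08 (adjusted p = 0.00991) in a fit of those 2 groups alone. For the vitamins against RANKL it was -0.98 (SE 0.40, adjusted p = 0.0877), and -1.56 (adjusted p = 0.00349) without replicate 2 of the vitamin-treated group. Without that library RANKL against PBS also passed (1.03, adjusted p = 0.0445). In all, 4 of 18 alternatives called Alox5 for RANKL against PBS and 6 for the vitamins against RANKL, DESeq2 among the 6. The vitamin-treated group and PBS differed by 0.05, with an interval from -0.85 to 0.94.

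Alox5ap, which presents arachidonic acid to Alox5 (ENSMUSG00000060063, chr5:149264767-149288153, + strand), had by far the highest level of the 10. FPKM was 313, 339 and 303 in PBS, 278, 212 and 256 in RANKL, and 165, 205 and 167 with the vitamins. The order PBS, RANKL, vitamins held for each group mean, at 318 ± 18.6, 249 ± 33.6 and 179 ± 22.5 (SD, n = 3), and neighbouring groups did not overlap in FPKM, although RANKL and vitamin-treated libraries did in depth-scaled counts. Against PBS the vitamin-treated group was lower by a log2 fold change of -0.81 (SE 0.13, adjusted p = 0.00184), 1.76-fold, in 18 of 18 alternatives. The 2 steps did not pass separately, at -0.47 (adjusted p = 0.0894) for RANKL against PBS and -0.34 (adjusted p = 0.0777) for the vitamins against RANKL, and were called in 2 and 4 of 18 alternatives. Alox5ap is also abundant in neutrophils, whose markers summed to 51.0, 95.5 and 9.27 FPKM in PBS, 64.8, 110 and 9.38 in RANKL, and 0.574, 1.5 and 0.493 with the vitamins, and their part in the Alox5ap values was not tested. Alox5ap shares 189 of 1420 exon bases with Gm19719 on the opposite strand, which had at most 219 counts.

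Lta4h, the leukotriene A4 hydrolase (ENSMUSG00000015889, chr10:93453411-93484874, + strand), had the narrowest intervals of the 10. FPKM was 10.3, 10.0 and 9.36 in PBS, 11.2, 11.8 and 9.98 in RANKL, and 11.2, 10.1 and 10.1 with the vitamins. Log2 fold changes were 0.02 for RANKL against PBS, 0.09 for the vitamins against RANKL and 0.11 for the vitamins against PBS. The 3 intervals together ran from -0.24 to 0.38.

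Ltc4s, the leukotriene C4 synthase (ENSMUSG00000020377, chr11:50236461-50238616, - strand), was lower with the vitamins than in PBS. FPKM was 8.05, 6.64 and 6.41 in PBS, 4.51, 2.61 and 7.26 in RANKL, and 3.32, 2.85 and 3.52 with the vitamins. The RANKL libraries spread 2.78-fold and overlapped both other groups. Against PBS the vitamin-treated group gave a log2 fold change of -1.08 (SE 0.36, adjusted p = 0.0397), called in 10 of 18 alternatives and lost without any 1 PBS or vitamin-treated library, without RANKL replicate 1 (adjusted p up to 0.125) and without the filter on low counts. Against RANKL it was -0.43 (adjusted p = 0.392), and RANKL against PBS gave -0.66 (adjusted p = 0.379). Of the summed FPKM of Ltc4s and Lta4h, Ltc4s made up 41.4% ± 2.11 in PBS, 29.7% ± 12.0 in RANKL and 23.6% ± 2.02 with the vitamins (SD, n = 3). The PBS and vitamin-treated shares did not overlap, with an exact permutation p of 0.1. Ltc4s shares 268 of 1014 exon bases with Gm26542 on the opposite strand, which reached 92 counts in PBS, 69 in RANKL and 5 with the vitamins.

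**Figure D3:**
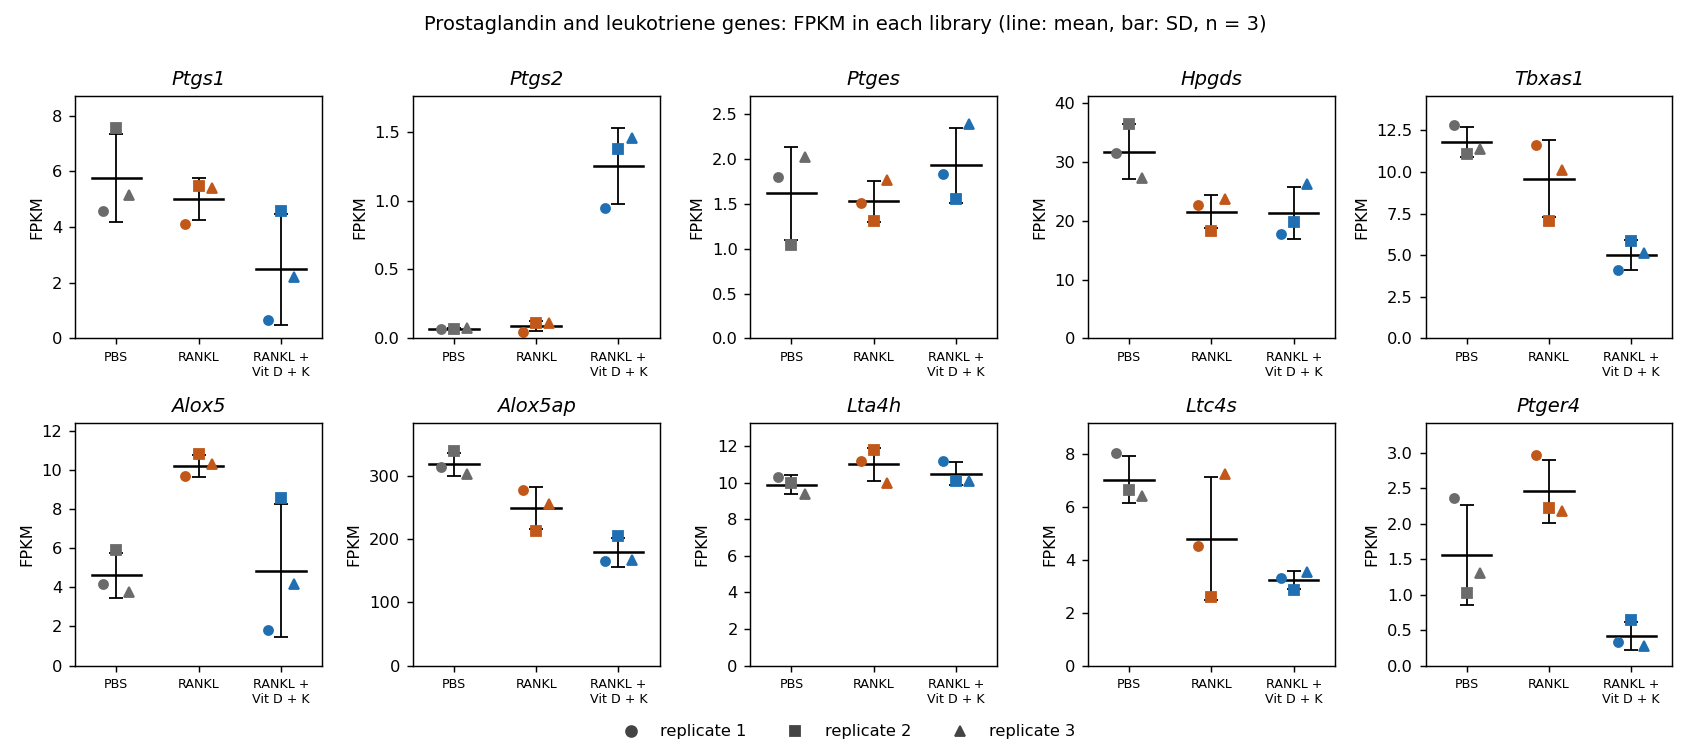
FPKM (y axis, from 0, own scale in each panel) of the 10 genes in each library by group, with mean (line) and SD (bar), n = 3, and marker shape for replicate number. Ptgs2 is high and Ptger4 and Tbxas1 are low in the 3 vitamin-treated libraries, and replicate 2 of that group stands above the other two for Ptgs1 and Alox5.

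Of the 52 other pathway genes, 47 had an entry and 39 entries were tested, Dpep2 having 2. With the vitamins 18 of the 39 differed from RANKL, 6 higher and 12 lower, a median log2 fold change of -0.40. Against PBS 21 differed, 7 higher and 14 lower (median -0.69). RANKL against PBS gave 3, each lower (median -0.07). In percent these are 46.2, 53.8 and 7.69 of the entries tested, beside the 33.7, 40.8 and 3.61 of all genes. The small counts by role below stand beside 16.4% of all genes higher and 17.2% lower for the vitamins against RANKL.

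At the entry to the pathway, 3 of 10 genes tested for arachidonate release differed between the vitamin-treated and RANKL groups, 2 higher and 1 lower. Pla2g4a, the cytosolic phospholipase A2 that frees arachidonic acid, had an FPKM of 2.39, 2.93 and 2.29 in PBS, 3.27, 6.48 and 3.19 in RANKL, and 26.4, 25.6 and 31.6 with the vitamins. These last 3 lay above every other library, and the log2 fold change was 2.86 (SE 0.26, adjusted p = 0.000362) against RANKL, a 7.27-fold rise. Daglb, a diacylglycerol lipase, fell by 0.78 on the log2 scale (adjusted p = 0.0131). Pla2g12a, a secreted phospholipase A2, passed against PBS alone (0.49, adjusted p = 0.0434), in 4 of 18 alternatives. Of the same group Pla2g5 rose in both vitamin comparisons and Pla2g2e against PBS, both at mean levels under 1 FPKM in every group.

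The other prostanoid synthases gave 1 higher and 2 lower of 6 against RANKL. Ptges3, the cytosolic prostaglandin E synthase also known as the cochaperone p23, was higher with the vitamins, from a mean FPKM of 19.5 to 30.6 (log2 fold change 0.82, adjusted p = 0.0193). Prxl2b, a prostaglandin F synthase, was lower, from 22.5 to 5.70 (-1.86, adjusted p = 0.00120), and Cbr1, a carbonyl reductase that acts on prostaglandin E2, from 9.13 to 5.29 (-0.63, adjusted p = 0.0413). The Prxl2b call held in 18 of 18 alternatives, that of Ptges3 in 12 and that of Cbr1 in 11.

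Breakdown and transport gave 1 higher and 2 lower of 5. Hpgd, the 15-hydroxyprostaglandin dehydrogenase that inactivates prostaglandin E2, had the largest change of the 20 genes plotted by role. Its counts were 17648, 15378 and 20029 in PBS, 8002, 2830 and 8212 in RANKL, and 55, 184 and 64 with the vitamins. The 3 groups did not overlap, and mean FPKM was 141, 49.6 and 0.784. The log2 fold change was -5.89 (SE 0.56, adjusted p = 0.000394) against RANKL and -7.50 (SE 0.60, adjusted p = 0.000154) against PBS. Without vitamin-treated replicate 2 these were -6.51 and -8.13. For RANKL against PBS it was -1.61 (adjusted p = 0.0916), called in 5 of 18 alternatives, by DESeq2 (adjusted p = 0.00870), limma on log2(FPKM + 1) (0.0493), voom (0.00191), the 2 groups alone (0.0435) and without vitamin-treated replicate 2 (0.0281). Ptgr1, a prostaglandin reductase, was higher with the vitamins (0.59, adjusted p = 0.0188) and its relative Ptgr2 was lower (-0.40, adjusted p = 0.0255). Zadh2, another prostaglandin reductase, was lower against PBS (-0.81, adjusted p = 0.00623).

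Among the genes of leukotriene conversion and export and the partners of Alox5, 1 of 8 entries was higher and 5 were lower with the vitamins than in RANKL, Dpep2 having 2 of the 8. Mgst2, which can also make leukotriene C4, had an FPKM of 5.13, 3.87 and 6.84 in RANKL and 0.614, 2.75 and 1.57 with the vitamins (a log2 value of -1.59, adjusted p = 0.0209). Replicate 2 was again the highest of its group. Ggt5, which converts leukotriene C4 to D4, fell stepwise from a mean of 1.62 in PBS to 0.613 in RANKL and 0.127 with the vitamins. The step to RANKL was -1.51 (adjusted p = 0.0438, but 0.0623 with the replicate number as a block) and that from RANKL -2.14 (adjusted p = 0.00282). The first of these was called in 8 of 18 alternatives and lost without any 1 PBS or RANKL library or vitamin-treated replicate 1 (adjusted p up to 0.176). Dpep2, which makes leukotriene E4 from D4, went from 42.8 to 23.4 FPKM in the entry with most of its counts, ENSMUSG00000053687 (-0.75, adjusted p = 0.0216). The other entry, ENSMUSG00000115067, overlaps it on the same strand and had 0.595 and 0.383 FPKM (-0.52, adjusted p = 0.472), so how reads were split between the 2 is uncertain. Cyp4f18, which oxidises leukotriene B4, went from 4.24 to 1.14 (-1.76, adjusted p = 0.00591), and Cotl1, an actin-binding partner of Alox5, from 238 to 103 (-1.09, adjusted p = 0.0159). Abcc1, the exporter of leukotriene C4, moved down with RANKL and up with the vitamins, from a mean FPKM of 41.4 in PBS to 26.8 and back to 43.5. Both steps passed, at -0.76 (adjusted p = 0.0199) and 0.85 (adjusted p = 0.00250), the first of them lost without any 1 of 5 of the 6 PBS and RANKL libraries.

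Of 4 prostanoid receptors tested beside Ptger4, Ptgir was called higher with the vitamins. Ptgir, the prostacyclin receptor, had an FPKM of 8.12, 6.13 and 8.20 in PBS, 6.28, 5.88 and 7.51 in RANKL, and 48.3, 20.7 and 43.5 with the vitamins. Here replicate 2 was the lowest of its group but above all libraries of the others, and the log2 fold change against RANKL was 2.69 (SE 0.35, adjusted p = 0.00115). Ptger2 encodes EP2, which like EP4 raises cyclic AMP, and was lower in RANKL than in PBS (mean FPKM 5.52 and 11.7, log2 fold change -1.20, adjusted p = 0.0297), a call lost without any PBS library and without RANKL replicate 1 or 3. The vitamins against RANKL gave 0.45 (adjusted p = 0.175) for Ptger2, where Ptger4 fell. Ptger1 (EP1) was lower with the vitamins than in PBS (-1.11, adjusted p = 0.0161, lost at 0.0747 without PBS replicate 1) and gave -0.71 (adjusted p = 0.0910, called in 4 of 18 alternatives) against RANKL. Of 4 leukotriene receptors, 2 were lower with the vitamins than in RANKL. Cysltr1, a receptor for leukotriene D4, had an FPKM of 7.62, 7.35 and 6.91 in RANKL and 1.23, 4.41 and 2.09 with the vitamins (-1.40, adjusted p = 0.0123). Ltb4r2, the other, stayed under 1 FPKM throughout. Of the 2 lipoxygenases tested besides Alox5, Alox15 and Alox12, 0 passed by edgeR in any comparison, both at mean levels of at most 0.102 FPKM.

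The calls of Pla2g4a, Prxl2b, Hpgd, Ggt5, Abcc1, Cyp4f18 and Ptgir against RANKL held in 18 of 18 alternatives, and each other call against RANKL among the 20 plotted genes was lost without at least 1 library. Without RANKL replicate 1 the calls of Daglb, Ptges3, Cbr1, Ptgr1, Ptgr2, Mgst2, Dpep2 and Cotl1 were lost, and without RANKL replicate 3 those of Ptges3, Cbr1, Ptgr1, Ptgr2, Mgst2 and Dpep2. Without vitamin-treated replicate 3 those of Daglb, Ptges3, Cbr1, Ptgr2, Mgst2, Dpep2, Cotl1 and Cysltr1 were lost, without vitamin-treated replicate 1 those of Ptges3, Ptgr1, Ptgr2 and Dpep2, and without any 1 PBS library that of Cbr1. Over all alternatives the adjusted p of these calls reached at most 0.145, for Ptgr1.

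**Figure D4:**
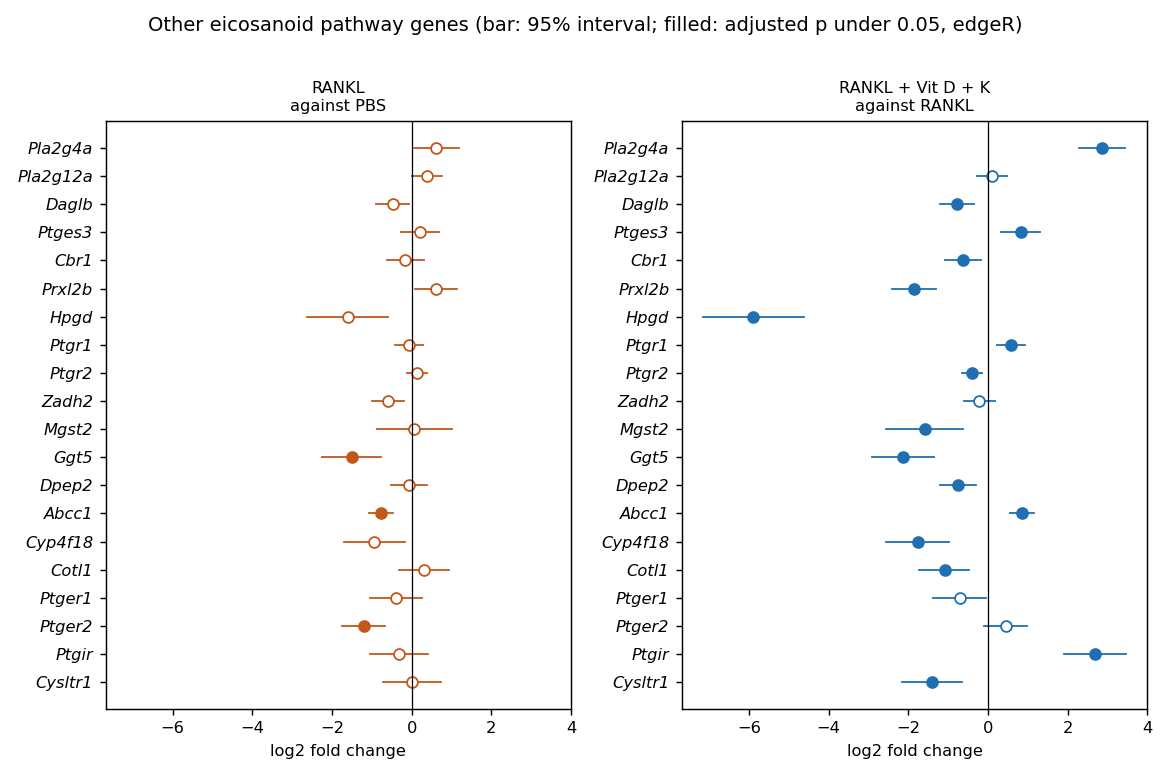
Log2 fold changes (points) with 95% intervals (bars) from edgeR for 20 other pathway genes in the order of their role, filled where the adjusted p was under 0.05. With the vitamins Pla2g4a (2.86) and Ptgir (2.69) lie furthest to the right and Hpgd (-5.89) furthest to the left, and 3 genes are filled for RANKL against PBS.

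All values here are transcript levels, and no lipid was measured in the files used here. The genes whose log2 depth-scaled counts most resembled each of the 3 called members over the 9 libraries were found by Pearson's r, given as a description since the libraries share their groups. For Ptgs2 they were Abraxas1 (0.9981), Gpt2 (0.9899) and Dlg1 (0.9897), for Ptger4 Lima1 (0.987), Mgl2 (0.9862) and Zmynd15 (0.9851), and for Tbxas1 Adap2 (0.9923), Pld4 (0.9912) and Gm5086 (0.9907). Mean FPKM of Abraxas1 went from 1.97 in RANKL to 4.54 with the vitamins, a smaller rise than that of Ptgs2. Among the 10 genes themselves the closest pair was Tbxas1 and Alox5ap, with an r of 0.95, and Ptgs2 ran most opposite to Ptger4, at -0.91.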

How the data were processed

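Poly(A)-selected RNA of 9 BMDM libraries was sequenced by the authors as paired-end reads. The deposited table holds whole-number counts per gene and FPKM values, both made by the authors, whose processing notes name cutadapt 1.9, HISAT2 2.0.4, StringTie 1.3.4d and edgeR. Those notes give a human genome build, while the identifiers are mouse, and 87.0% of genes have the GRCm38 (GENCODE M21) coordinates. Strand setting and treatment of shared reads are not given in the sources used here, and a count of 4 occurred 2.22 times as often as the average of its neighbours 3 and 5, for reasons not given.

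Genes were filtered with filterByExpr, scaled by TMM and tested with edgeR 4.0.16 (R 4.3.3, glmQLFit and glmQLFTest) in a single model of the 9 libraries, adjusting by Benjamini-Hochberg over 17002 genes and a threshold of 0.05. Standard errors are the log2 fold change divided by the square root of F. DESeq2 1.42.0, limma 3.58.1 on log2(FPKM + 0.1) and log2(FPKM + 1), voom with sample quality weights, other size factors, no filter, 2 groups alone, the replicate number as a block and leaving out each library were alternatives. The scripts were tested on simulated counts. Intervals and the floor of 3 counts cover counting and spread between these libraries, not other error.

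Same-numbered PBS and RANKL libraries deviated together (correlations of 0.122, 0.219 and 0.155 of their deviations from group means), so they may be pairs. The main fit did not use pairs, and all its values for RANKL against PBS are unpaired. The replicate number entered as a block in an alternative fit alone. This sign of pairing comes from the data and not from the labels, and the other 2 comparisons did not meet it.

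Other pathway genes are named where they passed in any comparison with a mean of at least 1 FPKM in some group, and Pla2g5, Pla2g2e, Ltb4r2, Alox15 and Alox12 were named after their values were seen. The 10 genes and the lists were chosen with earlier results of these data known. The controls are shared between comparisons.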

Additional observations from a re-analysis of the deposited data

How the results depend on the processing

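Calls for RANKL against PBS depended most on the setting. The edgeR count of 614 genes became 1612 with DESeq2, 3006 with voom, 1736 with the 2 groups alone and 126 to 1903 when 1 library was left out (1903 without vitamin-treated replicate 2). The main count of 5725 for the vitamins against RANKL became 10698 with voom and 3199 to 8259 with 1 library left out, and that of 6932 against PBS 10899 and 4766 to 8868. Limma on log2(FPKM + 0.1) split the calls against RANKL into 2184 higher and 3953 lower, beside 2796 and 2929, with a median of -0.164 over all genes. For RANKL against PBS, 0 of the 10 genes became 1 with DESeq2, 3 with voom, 2 with the 2 groups alone and 0 to 3 with 1 library left out, and 3 of the 39 pathway entries became 5 with DESeq2, 5 with limma on log2(FPKM + 1), 1 with limma without a filter, 8 with voom, 5 with the 2 groups alone and 0 to 6. For the vitamins against RANKL, 3 of the 10 became 5 with limma on log2(FPKM + 0.1) and on log2(FPKM + 1), 7 with voom and 2 to 5 with 1 library left out, and 18 of the 39 became 31 with voom and 10 to 25. The causes were not tested.

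Changes of sign concerned values that passed no test. Of these the furthest from 0 in the main fit was Ltc4s for the vitamins against RANKL, at -0.43, which changed sign without RANKL replicate 3. On log2(FPKM + 0.1), with and without a filter, Ptgr1 for RANKL against PBS was 0.06 and Dpep2 0.03, Hpgds for the vitamins against RANKL was -0.03, Lta4h -0.07 and Pla2g12a -0.03, and Alox5 for the vitamins against PBS was -0.16. On log2(FPKM + 1) these were 0.06, 0.03, -0.03, -0.06, -0.02 and -0.09. Voom gave -0.10 for Ptgs2 and 0.04 for Dpep2 for RANKL against PBS, and -0.11 for Alox5 for the vitamins against PBS. With 1 library left out, RANKL against PBS ran from -0.19 to 0.27 for Mgst2, -0.19 to 0.14 for Dpep2, -0.18 to 0.13 for Ptgr1, -0.40 to 0.05 for Ptges, -0.05 to 0.12 for Cysltr1, -0.01 to 0.11 for Lta4h, -0.02 to 0.37 for Ptges3 and -0.01 to 0.51 for Ptgs2. The vitamins against RANKL ran from -0.08 to 0.24 for Hpgds, -0.74 to 0.03 for Ltc4s and -0.02 to 0.18 for Lta4h, and Alox5 against PBS from -0.53 to 0.48.

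With the replicate block, 825 genes passed for RANKL against PBS, and of the genes named Ggt5 lost its call. In the comparisons that share a number without pairing, Alox5 (-1.14, adjusted p = 0.0389) and Ptger1 (-0.67, adjusted p = 0.0399) joined against RANKL. Against PBS Ptgs1 (-1.45, adjusted p = 0.0247) joined, Hpgds (adjusted p = 0.0505) and Pla2g12a (adjusted p = 0.054) left, and Alox5 was -0.07. Shares from counts divided by length were not run, since no gene length was used here. With 3 libraries a group, a p of 0.1 is the least a permutation test can give.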
